A study of Mus musculus with 8 samples.

Results

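The genes described here are 9 mouse genes of the JAK-STAT pathway: the transcription factor genes Stat3, Stat5a, Stat5b and Stat6, the feedback inhibitor genes Socs1, Socs2, Socs3 and Cish, and the kinase gene Pim1. They were chosen by name and role, with earlier results of these data known. They are 9 of the 33898 genes listed with values per library. All 9 were found and tested in every comparison. RNA was sequenced from Th1 cells, the interferon-gamma-producing class of T helper cells, in 8 libraries that fall into 4 groups of 2. Every group came from C57BL/6 mouse CD4 T cells stimulated through CD3 and CD28, with 2 ng/ml of IL-12 and 5 µg/ml of an antibody to IL-4 in the medium. In the knockdown experiment, cells transduced with a hairpin RNA against Pcbp1 were set beside cells transduced with a scrambled hairpin, and total RNA depleted of ribosomal RNA was sequenced. In the drug experiment, cells treated with CPX, labelled an iron chelator, were set beside cells treated with DMSO, and polyA RNA was sequenced. The sources used here give neither the dose and time of CPX nor the age of the mice or the time after transduction. Which transcripts depend on PCBP1, a protein that binds RNA and hands iron to other proteins, is the question the series title names.

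A cytokine that binds its receptor brings together the attached Janus kinases (JAKs), which phosphorylate STAT proteins. The phosphorylated STATs pair, enter the nucleus and bind DNA at sites of the form TTC, a short spacer and GAA. Among the genes they switch on are those of the SOCS family, including CIS (the product of Cish), which bind receptors or kinases and damp the same signal. In T cells, IL-2, IL-7 and IL-15 signal mainly through STAT5A and STAT5B, IL-6, IL-10 and IL-21 mainly through STAT3, and IL-4 through STAT6. PIM1 is a serine/threonine kinase known for supporting survival and growth downstream of STAT3 and STAT5. Messenger RNA was measured here. The amount of STAT protein and its phosphorylation were not.

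The RefSeq table for GRCm38.p6 held 11 promoter windows for 8 of the 9 genes, each running from 250 bases before the start of transcription to 50 after it. The gene without an entry is Socs2. The windows were searched for TTCNNNGAA and for the form with a spacer longer by 1 base, motifs that read the same on both strands. The first was found in the promoters of Cish and Socs3, 2 of the 8 genes, against 9.55% of all 26994 genes and 8.29% of all 32817 windows in the table. The second was found in 0 of the 11 windows, against 6.95% of all windows. Cish and Socs3 are shown because they are the members with a match and because they moved in opposite directions under CPX. Capitals mark the matches.
Cish, chr9:107296409-107296708, plus strand: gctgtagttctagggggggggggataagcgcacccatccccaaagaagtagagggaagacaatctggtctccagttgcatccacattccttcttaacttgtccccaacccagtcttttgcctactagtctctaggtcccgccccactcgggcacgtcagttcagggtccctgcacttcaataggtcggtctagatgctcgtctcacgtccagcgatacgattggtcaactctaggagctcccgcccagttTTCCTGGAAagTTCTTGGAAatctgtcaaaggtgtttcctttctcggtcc
Socs3, chr11:117969317-117969616, minus strand: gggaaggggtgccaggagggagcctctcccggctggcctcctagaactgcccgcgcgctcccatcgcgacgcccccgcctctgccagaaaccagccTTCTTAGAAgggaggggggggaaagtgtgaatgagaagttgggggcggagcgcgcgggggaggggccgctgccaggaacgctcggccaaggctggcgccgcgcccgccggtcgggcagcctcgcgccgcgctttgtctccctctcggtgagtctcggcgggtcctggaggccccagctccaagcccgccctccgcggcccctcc
Cish held 2 matches, at bases 251 to 259 and 262 to 270 of the window, and Socs3 held 1, at bases 97 to 105. A match is a string of letters, and binding of any STAT was not measured here.

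The libraries of the knockdown experiment held 14174293 to 15518303 assigned reads, and those of the drug experiment 19193784 to 19662145 units of a rescaled count. Levels are given as RPM, a gene's share of its library's total times 1e+06. Replicates correlated across genes at 0.992 in the Pcbp1 hairpin group, 0.993 in the scrambled group, 0.954 in the CPX group and 0.985 in the DMSO group (Pearson, log2 scale). The CPX pair was the least alike, with 1773 genes over 2-fold apart, against 524 between the DMSO libraries. Nothing in the labels says that replicates came from separate cultures or mice, so p-values measure only the spread between these libraries, which may be technical. Pcbp1 itself had 15.1 and 16.1 RPM with its hairpin, against 44.0 and 51.7 RPM with the scrambled hairpin, 3.31-fold lower (edgeR adjusted p 3.18e-05). Fold changes in the knockdown are edgeR's, after a further scaling of the libraries (TMM), and so differ from ratios of the RPM given. All 7 T cell markers listed, Cd3e, Cd4 and Tbx21 among them, were detected. All 7 were also called in the knockdown by edgeR, Cd3e (log2 fold change 0.87), Cd4 (0.88), Trac (0.51) and Tbx21 (0.33) higher and Cd3d (-1.18), Cd28 (-0.80) and Ifng (-1.17) lower, and their part in the knockdown results was not tested. The call of Tbx21 did not hold without scrambled replicate 2 or without Pcbp1 hairpin replicate 1. Of 4 listed B cell markers only Cd79a reached the minimum used to name genes, with at most 1.51 RPM in any library. Those of neutrophils and erythroid cells were all under that minimum. Of 5 listed CD8 T and NK cell markers 3 reached it. They summed to 136 and 43.1 RPM with the Pcbp1 hairpin, against 143 and 44.3 RPM with the scrambled hairpin. Replicate 1 thus held more in both groups.

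With the Pcbp1 hairpin, the genes for the transcription factors STAT3, STAT5B and STAT6 and for the kinase PIM1 rose, and the genes for the feedback inhibitors SOCS2 and CIS fell. The larger changes were those of Stat3, 2.46-fold higher, and Socs2, 2.60-fold lower. Stat5b and Pim1 rose by 1.59-fold and 1.61-fold, Stat6 by 1.24-fold, and Cish fell by 1.63-fold. Stat5a, Socs1 and Socs3 did not pass the test. Thus 6 of 9 genes were called at an adjusted p under 0.05 by edgeR's quasi-likelihood test, 4 of them higher and 2 lower. In the same test 56% of all 11575 genes were called, 29.3% higher and 26.7% lower, so a share of called members this high is near the background. In bulk RNA, fewer cells of a type and less RNA per cell cannot be told apart, and this holds for each change below.

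Stat3, the factor that transmits IL-6, IL-10 and IL-21 signals, had 83.4 and 65.7 RPM with the Pcbp1 hairpin, against 29.0 and 27.2 RPM with the scrambled hairpin. Both knockdown libraries stood far above both controls, and the gap between the groups was larger than the gap inside either. The log2 fold change was 1.30 ± 0.12 (SE; 95% interval 1.02 to 1.58; edgeR adjusted p 9.67e-05), and Stat3 ranked 533 of 11575 from the most raised gene. Stat5b, one of the 2 factors that transmit IL-2 signals, had 150.0 and 127 RPM with the Pcbp1 hairpin, against 81.5 and 79.7 RPM with the scrambled hairpin. The groups did not overlap, and the log2 fold change was 0.67 ± 0.08 (SE; edgeR adjusted p 0.000381).

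Stat5a, the close relative of Stat5b that shares most of its functions, had 298 and 270 RPM with the Pcbp1 hairpin, against 254 and 253 RPM with the scrambled hairpin. The libraries did not overlap, but the values differed little once TMM scaling was applied. The log2 fold change was 0.06 ± 0.07 (SE; 95% interval -0.10 to 0.21; edgeR adjusted p 0.482), an interval whose upper end lies under the 0.67 of Stat5b. The difference between the fold changes of Stat5a and Stat5b was not tested. Stat6, the factor for IL-4 and IL-13, had 229 and 235 RPM with the Pcbp1 hairpin, against 163 and 183 RPM with the scrambled hairpin. The groups did not overlap (log2 fold change 0.31 ± 0.07, SE; edgeR adjusted p 0.00897). This call ended without scrambled replicate 1 (adjusted p 0.0554, with adjusted p from 0.000489 to 0.0554 over 11 alternatives).

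Among the inhibitors, Socs2, known in mice for restraining growth hormone signalling, had 5.16 and 5.94 RPM with the Pcbp1 hairpin, against 11.6 and 15.1 RPM with the scrambled hairpin. These levels are low, resting on 80 and 85 reads with the Pcbp1 hairpin and 165 and 216 reads with the scrambled hairpin, yet the groups stood well apart. The log2 fold change was -1.38 ± 0.19 (SE; edgeR adjusted p 0.000586), and Socs2 ranked 109 from the most lowered gene. Cish, a gene induced by STAT5 whose product damps IL-2 and T cell receptor signalling, had 42.8 and 41.7 RPM with the Pcbp1 hairpin, against 69.2 and 58.4 RPM with the scrambled hairpin. Both knockdown libraries lay below both controls (log2 fold change -0.70 ± 0.10, SE; edgeR adjusted p 0.000639). Cish thus fell in the same libraries in which Stat5b rose.

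Socs1 encodes an inhibitor of the JAKs that restrains interferon-gamma signals. It had 5.93 and 4.90 RPM with the Pcbp1 hairpin, against 3.67 and 4.05 RPM with the scrambled hairpin. The groups did not overlap, but with 52 to 92 reads in a library the change was not called (log2 fold change 0.38 ± 0.20, SE; 95% interval -0.09 to 0.85; edgeR adjusted p 0.147). Socs3, the inhibitor of the IL-6 receptor chain gp130, had 8.83 and 4.34 RPM with the Pcbp1 hairpin, against 8.18 and 7.26 RPM with the scrambled hairpin. The Pcbp1 hairpin libraries lay on either side of the controls, so that leaving 1 out decided the result. The log2 fold change was -0.33 ± 0.30 (SE; 95% interval -1.03 to 0.37; edgeR adjusted p 0.378). It was -0.93 and called without Pcbp1 hairpin replicate 1 (adjusted p 0.0134), and 0.06 without replicate 2 (adjusted p 0.853), these being the lowest and highest adjusted p over 11 alternatives.

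Pim1, the survival kinase, had 181 and 184 RPM with the Pcbp1 hairpin, against 103 and 108 RPM with the scrambled hairpin. Replicates agreed within a few percent and the groups were clearly apart (log2 fold change 0.68 ± 0.06, SE; edgeR adjusted p 8.25e-05). The calls of Stat3, Stat5b, Socs2, Cish and Pim1 held in all 11 alternatives. Of the 9 genes, 8 had groups that did not overlap, 6 higher and 2 lower, against 78.5% of all genes tested, 45.8% higher and 32.7% lower. Overlap was judged on RPM, without the TMM scaling of the tests. On log2(RPM + 0.5) the median log2 fold change over all genes was 0.10, so part of the excess of higher genes follows the scaling. With TMM scaling the median log2 fold change of the 9 was 0.31, beside 0.00 over all genes.

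**Figure D1:**
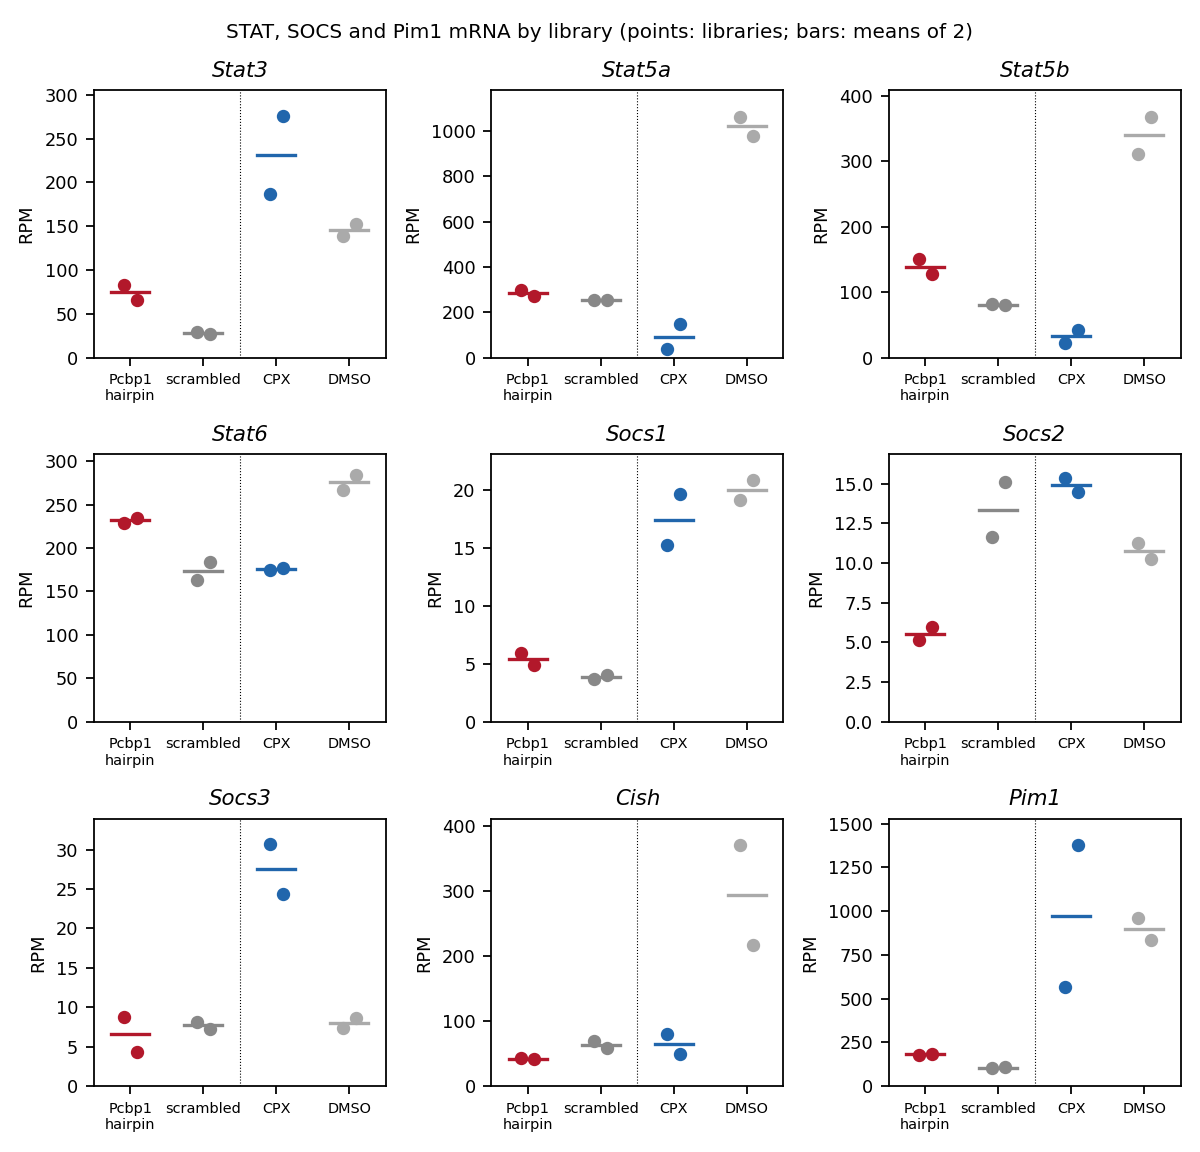
Levels of the 9 genes in each of the 8 libraries, in RPM on linear axes that start at 0, with 1 point per library and a bar at the mean of each pair. A dotted line parts the knockdown from the drug experiment, across which levels are not compared. Stat5a shows 36.5 and 148 RPM with CPX under 1062 and 980.1 RPM with DMSO, and Stat3 shows 83.4 and 65.7 RPM with the Pcbp1 hairpin over 29.0 and 27.2 RPM with the scrambled hairpin.

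With CPX, both STAT5 genes fell by more than 10-fold, a change much deeper than that of any other of the 9 genes. Cish, an inhibitor gene that STAT5 induces, fell 4.48-fold, and Stat6 fell 1.56-fold. Socs3 rose 3.29-fold and was the only one of the 9 called higher. Stat3, Socs1, Socs2 and Pim1 did not pass the test. By limma on log2(RPM + 0.5), 5 of 9 genes were called, 1 higher and 4 lower, while 44.7% of all 11466 genes were called, 19.9% higher and 24.8% lower. Leaving out DMSO replicate 1 or 2 left 2108 or 2354 genes called in place of 5124, and 3 of the 9, namely Stat5a, Stat5b and Cish.

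Stat5a had 36.5 and 148 RPM with CPX, against 1062 and 980.1 RPM with DMSO. The CPX libraries were far apart from each other, but both lay many-fold below both DMSO libraries. The log2 fold change was -3.78 ± 0.63 (SE; 95% interval -5.35 to -2.22; limma adjusted p 0.00725), 13.8-fold lower. Its size hung on which CPX library was kept: 6.85-fold lower without replicate 1 and 27.6-fold lower without replicate 2. Those fits no longer include the spread of the CPX pair, so their calls are not given weight here. In the alternatives that kept all libraries, limma adjusted p ran from 6.99e-05 to 0.0189.

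Stat5b had 22.9 and 42.2 RPM with CPX, against 311 and 368 RPM with DMSO. Here the CPX libraries lay closer together, and the gap to DMSO was again far wider than the gap within a group. The log2 fold change was -3.42 ± 0.33 (SE; 95% interval -4.26 to -2.59; limma adjusted p 0.00258), 10.7-fold lower. Added together, the STAT5 genes had 59.3 and 191 RPM with CPX, against 1374 and 1348 RPM with DMSO. Such deep falls were uncommon: 194 genes, 1.69% of those tested, fell by more than 3 on the log2 scale, and Stat5a and Stat5b ranked 56 and 104 from the most lowered.

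Stat6 had 175 and 177 RPM with CPX, against 267 and 284 RPM with DMSO. The replicates were close in both groups and the groups did not overlap (log2 fold change -0.64 ± 0.19, SE; limma adjusted p 0.0371). The call was lost without DMSO replicate 1 (adjusted p 0.254), without DMSO replicate 2 (0.309), with TMM scaling (0.0839) and without the variance trend (0.0784), with adjusted p from 0.0314 to 0.309 over 12 alternatives. Stat3 had 187 and 276 RPM with CPX, against 138 and 153 RPM with DMSO. Both CPX libraries lay above both DMSO libraries, but the change was not called (log2 fold change 0.64, 95% interval 0.01 to 1.27; limma adjusted p 0.0895). It was called with TMM scaling (adjusted p 0.0444) and without CPX replicate 1 (adjusted p 0.0234), with adjusted p from 0.0234 to 0.384 over 12 alternatives.

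Cish had 80.7 and 49.3 RPM with CPX, against 372 and 218 RPM with DMSO. Replicates differed in both groups, yet the higher CPX library stood well below the lower DMSO library (log2 fold change -2.16 ± 0.37, SE; limma adjusted p 0.00768). Cish ranked 666 from the most lowered gene. Socs3 had 30.7 and 24.3 RPM with CPX, against 7.32 and 8.65 RPM with DMSO. Its rise ran opposite to the fall of Cish (log2 fold change 1.72 ± 0.31, SE; limma adjusted p 0.00876). The call was lost without DMSO replicate 1 (adjusted p 0.0869) or replicate 2 (0.0589), with adjusted p from 0.00443 to 0.0869 over 12 alternatives.

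Socs1 had 15.3 and 19.6 RPM with CPX, against 19.1 and 20.9 RPM with DMSO. The groups overlapped, and the 95% interval of the log2 fold change ran from -0.93 to 0.53 (limma adjusted p 0.599). Socs2 had 15.4 and 14.4 RPM with CPX, against 11.2 and 10.2 RPM with DMSO. These groups did not overlap, but the change was not called (log2 fold change 0.46, 95% interval -0.27 to 1.18; limma adjusted p 0.247). Pim1 had 569 and 1377 RPM with CPX, against 962 and 835 RPM with DMSO. One CPX library lay above both DMSO libraries and the other below them, so no direction was established (log2 fold change -0.02, 95% interval -1.07 to 1.04; limma adjusted p 0.977). Of the 9 genes, 7 had groups that did not overlap, 3 higher and 4 lower, against 76.3% of all genes tested, 34.2% higher and 42.2% lower. The median log2 fold change of the 9 was -0.20, beside -0.12 over all genes.

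Markers of other cells also moved with CPX. Of 6 listed myeloid markers, the 4 that could be named summed to 31.7 and 42.4 RPM with CPX, against 2.39 and 4.45 RPM with DMSO. All 3 that could be tested, Itgax, Cd68 and Emr1 (an older symbol of Adgre1, the gene of the macrophage antigen F4/80), were called higher by limma, while the defining markers Lyz2 and Csf1r were under the minimum used to name genes. The fibroblast marker Col1a1 had 4.32 and 3.12 RPM with CPX, against 0.203 and 0.460 RPM with DMSO, while the other 3 listed fibroblast markers, Col1a2, Col3a1 and Dcn, were under the minimum used to name genes and are listed with a mean of 0 in the authors' deposited table for CPX. The T cell markers Cd3e (log2 fold change -1.35), Trac (-0.75) and Ifng were called lower and Cd3d (0.80) higher with CPX by limma, each call lost without at least 1 of the libraries, and Cd4, Cd28 and Tbx21 were not called. The myeloid sums with CPX were of the same order as Socs3 with CPX, 30.7 and 24.3 RPM. The B cell marker Cd79a (log2 fold change 0.96) was called higher with CPX by limma and the CD8 T cell marker Cd8b1 lower. Both calls were lost without either DMSO library, that of Cd79a also without CPX replicate 2, and that of Cd8b1 also without either CPX library. The part of any of these markers in the results was not tested.

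**Figure D2:**
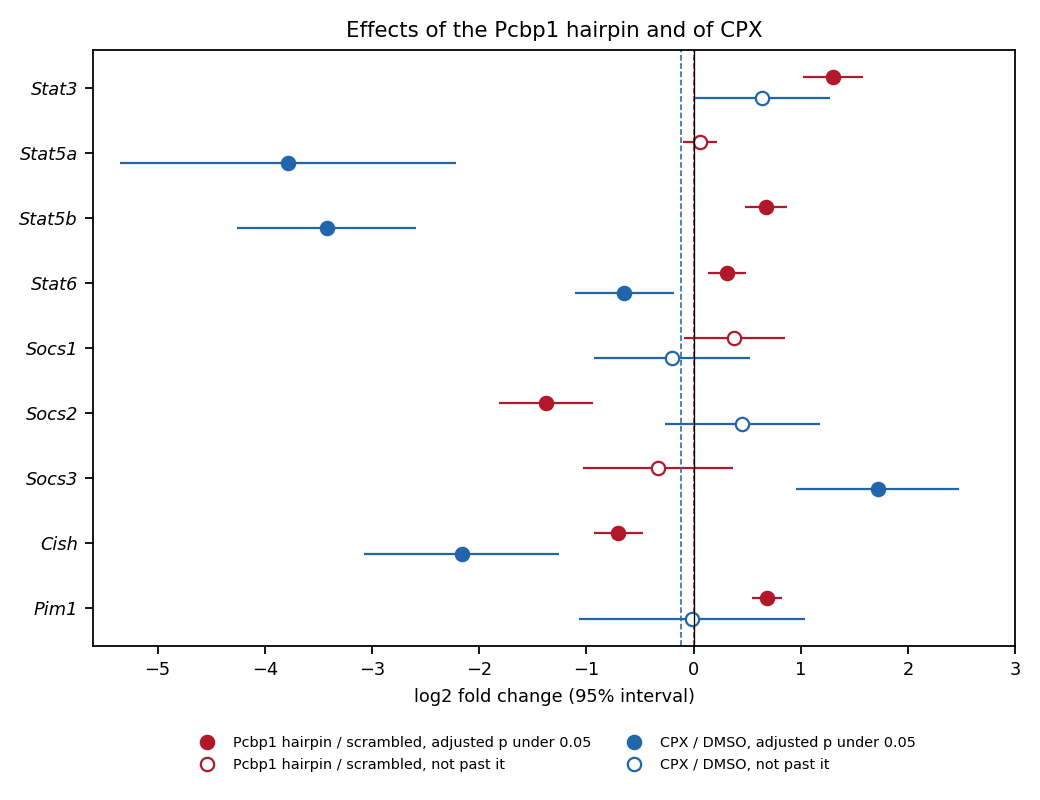
Log2 fold change of each of the 9 genes in the knockdown (Pcbp1 hairpin over scrambled hairpin, edgeR) and the drug experiment (CPX over DMSO, limma), with 95% confidence intervals and filled points where the adjusted p is under 0.05. Dashed lines mark the median of all genes, 0.00 in the knockdown and -0.12 under CPX. Stat5b stands at 0.67 in the knockdown and -3.42 under CPX, while the interval of Pim1 under CPX, -1.07 to 1.04, crosses 0.

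The knockdown effect was then set against the CPX effect in 1 limma fit over all 8 libraries. The difference, knockdown minus CPX on the log2 scale, was positive for Stat5a (3.95; adjusted p 0.00457), Stat5b (4.20; 0.000198), Stat6 (1.07; 0.00170) and Cish (1.58; 0.0185), and negative for Socs2 (-1.64; 0.00308) and Socs3 (-2.01; 0.00894). Stat5b and Stat6 were called in opposite directions by the single tests, higher with the Pcbp1 hairpin and lower with CPX. The calls of Stat6 were each lost in some alternatives, as given above, while those of Stat5b held in all. Cish was called lower in both experiments, and further below its control with CPX. The differences for Stat3 (0.74; adjusted p 0.0726), Socs1 (0.64; 0.116) and Pim1 (0.81; 0.215) were not called. So 6 of 9 genes were called, 4 higher and 2 lower, against 51.3% of 10430 genes, 35.2% higher and 16.1% lower.

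The median difference over all genes was 0.40, and with TMM scaling it was 0.04, with 2851 genes called higher and 2444 lower in place of 3671 and 1675. The differences of Stat5a and Stat5b are several times that shift, and those of Socs2 and Socs3 run against it. Cish lost its call with TMM scaling (adjusted p 0.0706), without scrambled replicate 2 (0.0695), without either Pcbp1 hairpin library (0.0594 and 0.0562) and without DMSO replicate 1 (0.0511), with adjusted p from 0.00278 to 0.0706 over 13 alternatives. Without CPX replicate 2, the differences were 1.02 for Stat3, 0.81 for Socs1 and 1.44 for Pim1. The spread in that fit no longer includes the CPX pair, the least alike, so its calls are not given weight here. Over 13 alternatives adjusted p reached 0.274 for Stat3 and 0.473 for Pim1, and over 12 it reached 0.429 for Socs1. Pcbp1 itself also fell with CPX, 2.40-fold (limma adjusted p 0.00613), a call lost without either DMSO library. Its difference between the experiments was not called (-0.32; limma adjusted p 0.229), but was with TMM scaling (-0.70; 0.0398). The experiments differ in perturbation and in RNA selection, and which of these a difference follows cannot be told apart.

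**Figure D3:**
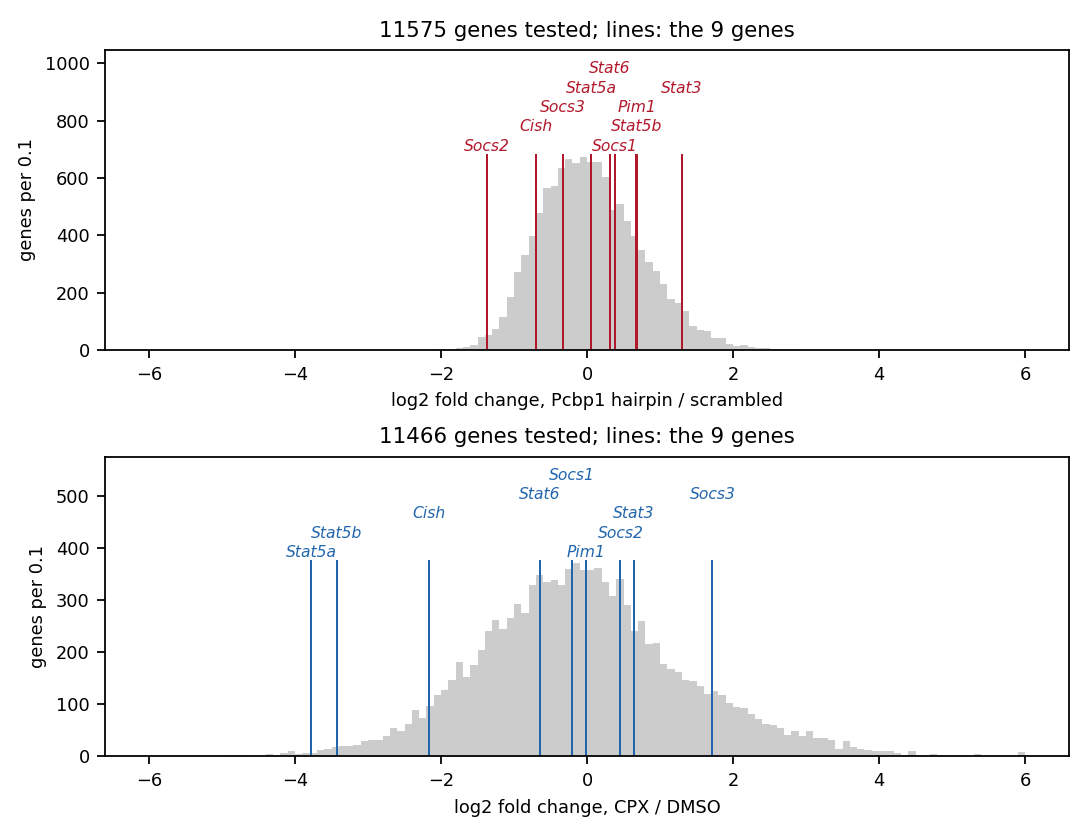
Histograms of the log2 fold change over all genes tested, for the knockdown (11575 genes) and for CPX (11466 genes), with a line for each of the 9 genes and changes past 6 counted in the end bins. Under CPX Stat5a and Stat5b lie in the far left tail, where 1.69% of genes fell by more than 3, while in the knockdown 0 genes fell so far.

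Levels were also compared between genes, as mean RPM per kilobase of exon (lengths from the GENCODE annotation of GRCm38). With the Pcbp1 hairpin the order began with Stat5a at 71.6 ± 4.93, Stat6 at 61.4 ± 1.04, Pim1 at 58.7 ± 0.784 and Stat5b at 25.0 ± 2.95 (SD, n = 2). Stat3 at 12.0 ± 2.01 and Cish at 11.6 ± 0.215 came next and overlapped, and Socs3, Socs2 and Socs1, at 2.58, 2.06 and 1.86, came last, each overlapping its neighbour. With the scrambled hairpin Stat5a (63.8 ± 0.152), Stat6 (45.9 ± 3.81) and Pim1 (33.9 ± 0.933) also led, but Cish (17.5 ± 2.09) stood above Stat5b (14.6 ± 0.223), and Stat3 (4.51 ± 0.208) overlapped Socs2 (4.95 ± 0.902). Socs3 at 3.03 and Socs1 at 1.33 were the lowest there.

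With CPX the order was led by Pim1 at 313 ± 184 RPM per kilobase, ahead of Stat6 at 46.6 ± 0.449 (SD, n = 2). Stat3 at 37.2 ± 10.1, Stat5a at 23.3 ± 20.0 and Cish at 17.8 ± 6.07 overlapped in turn, Socs3 followed at 10.8 ± 1.76, and Socs1, Stat5b and Socs2, at 6.00, 5.87 and 5.53, overlapped at the bottom. With DMSO Pim1 (289 ± 28.9) and Stat5a (257 ± 14.7) led, Cish (80.9 ± 30.0) overlapped Stat6 (73.0 ± 3.20), and Stat5b (61.3 ± 7.22), Stat3 (23.4 ± 1.65), Socs1 (6.89), Socs2 (3.98) and Socs3 (3.13) followed apart from each other. Stat5b, mid-order with DMSO, therefore sat among the weakly expressed SOCS genes with CPX. Levels were not compared across the experiments.

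Stat3, Stat5a and Stat5b lie next to each other on chromosome 11 (GRCm38, bases 100780731 to 100939540), and Stat3 and Stat5a, which run on opposite strands, overlap by 72 bases at their ends. Stat5a and Stat5b are alike in sequence: 18.6% of the 36-base stretches of Stat5a transcripts are also in Stat5b, and 14.0% of those of Stat5b are in Stat5a. Neither read length nor the treatment of shared reads is given, so how the reads were split between the STAT5 genes is uncertain. Per kilobase, Stat5a made up 73.5% and 74.8% of the STAT5 sum with the Pcbp1 hairpin, against 81.3% and 81.6% with the scrambled hairpin. Its share was 69.0% and 83.1% with CPX, against 82.7% and 78.8% with DMSO. The shares were lower in both Pcbp1 hairpin libraries than in both scrambled libraries and overlapped in the drug experiment, and with 2 libraries a group an exact two-sided permutation test cannot give a p under 0.333. Stat6, Cish and Pim1 overlap other annotated genes on the opposite strand (Nab2 for Stat6, antisense or pseudogene transcripts for the others), and whether counting used strand is not given.

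The authors' deposited tables of fold changes were read for the same genes. In the authors' deposited table for the knockdown, the same 6 genes passed an adjusted p of 0.05, Stat3 with a log2 fold change of 1.27 and Socs2 with -1.26, where 43.6% of the 11443 genes with an adjusted p passed. In the authors' deposited table for CPX, 41.3% of 15791 genes passed, among them Stat5a (-3.32), Stat5b (-3.29), Cish (-2.10) and Socs3 (1.77). Stat6 did not pass in the authors' deposited table for CPX (adjusted p 0.108).

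Other genes of the pathway were taken from lists of kinases, inhibitors, receptors, ligands and targets, counted with the same tests and thresholds. The lists were also chosen with earlier results of these data known. With the Pcbp1 hairpin, most cytokine genes fell: of 14 ligand genes 11 could be tested, and 9 were called lower and 0 higher by edgeR, against 26.7% and 29.3% of all genes. Their median log2 fold change was -1.18, beside 0.00 over all genes, and Lif (-0.07) and Osm (0.13) were not called. Il2, the T cell growth factor that signals through STAT5, had 3555 and 3750 RPM with the Pcbp1 hairpin, against 9014 and 8890 RPM with the scrambled hairpin (log2 fold change -1.40). Il21, which signals through STAT3, fell by 1.81 on the log2 scale, Csf2 by 2.19, and Il4, the STAT6 ligand, by 2.73. Among receptors, 6 of 18 tested were called higher and 1 lower (median 0.14), against 29.3% and 26.7% of all genes, so the share called higher is near the background. The IL-2 receptor chain gene Il2rb rose to 167 and 157 RPM with the Pcbp1 hairpin, against 82.8 and 90.5 RPM with the scrambled hairpin (log2 fold change 0.79), and the shared chain Il2rg rose by 0.73. Ifngr1 rose by 0.90, while Il7r, the IL-7 receptor, fell by 0.71. All of these named calls held without any 1 library.

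Between receptor and target, changes with the Pcbp1 hairpin went both ways. Of the 4 JAK kinases, Jak1 (log2 fold change 0.42) and Jak3 (0.57) rose and Jak2 (-0.24) and Tyk2 (-0.48) fell by edgeR, and of these only Jak1 and Tyk2 were called without each library in turn. Jak2 lost its call without either scrambled library or without Pcbp1 hairpin replicate 1, and Jak3 without scrambled replicate 2 or Pcbp1 hairpin replicate 1. Stat4, which transmits IL-12 signals, fell by 0.49, and Stat2 rose by 0.52, a call lost without any 1 of the 4 libraries. Of the other 4 SOCS genes Socs7 alone was called, rising by 1.33, and Pim2 rose by 0.57, a call that did not hold without scrambled replicate 2 or without Pcbp1 hairpin replicate 1. Of 10 other inhibitors of the pathway, 5 were called higher and 2 lower, against 29.3% and 26.7% of all genes, with 3 higher without scrambled replicate 1 or Pcbp1 hairpin replicate 2. The phosphatase genes Ptpn11 (1.22) and Ptpn6 (0.82) and the adaptor gene Sh2b3 (0.77) rose, and Ptpn2 (-0.97), whose product removes phosphate from JAKs and STATs, fell.

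Of 16 target genes of STAT3 and STAT5, 5 were called higher and 3 lower with the Pcbp1 hairpin (median log2 fold change -0.03). Over all genes 29.3% were called higher and 26.7% lower, so these shares are near or under the background. The growth genes Myc (0.96) and Ccnd2 (0.97) and the repressor gene Bcl6 (1.42) rose, and Batf (-1.05), a factor of effector T cells, fell. The number called lower was 5 without scrambled replicate 2 and 7 without Pcbp1 hairpin replicate 1. Of 6 STAT6 targets, 4 were called lower and 1 higher (median -1.30), against the same shares of all genes. Ccr8, a chemokine receptor, had 3.48 and 3.15 RPM with the Pcbp1 hairpin, against 12.6 and 12.1 RPM with the scrambled hairpin, and Crem (-1.58), Ccr4 (-1.27) and Il24 (-1.32) fell too.

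With CPX, 5 of 11 ligand genes tested were called lower and 0 higher by limma (median log2 fold change -2.96), against 24.8% and 19.9% of all genes, whose median was -0.12. Il2 had 182 and 226 RPM with CPX, against 10023 and 4183 RPM with DMSO (log2 fold change -4.99). Il13 (-4.65), Il22 (-2.70) and Ifng (-2.96) also fell, and Ifng lost its call without DMSO replicate 2 or CPX replicate 1. The sizes depended on single libraries: Il2 was 49.3-fold lower without DMSO replicate 2 and 20.6-fold lower without DMSO replicate 1, Il13 was 58.2-fold lower without CPX replicate 1 and 10.9-fold lower without CPX replicate 2, and Ifng was 16.5-fold lower without CPX replicate 2. Of 17 receptor genes tested, 5 were called higher and 2 lower (median 0.48), against 19.9% and 24.8% of all genes. Without DMSO replicate 1 these counts were 2 and 2, and without DMSO replicate 2 they were 3 and 0. Il2rb had 656 and 533 RPM with CPX, against 149 and 167 RPM with DMSO (log2 fold change 1.90), and Il6st, the gene of gp130, rose by 2.38. Il6ra rose by 1.68, a call lost without either DMSO library, and Il12rb2, a chain of the IL-12 receptor, fell by 1.98, a call lost without DMSO replicate 2 or either CPX library.

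Of 16 STAT3 and STAT5 targets, 7 were called lower and 1 higher with CPX (median -1.08), against 24.8% and 19.9% of all genes. Myc had 56.9 and 45.0 RPM with CPX, against 1552 and 1263 RPM with DMSO (log2 fold change -4.78). The survival gene Bcl2l1 (-3.86) and Batf (-3.08) fell as well, and Bcl6 (2.66), a gene that STAT5 represses and STAT3 supports, rose. All 4 of these calls held without any 1 library. Myc was thus called in opposite directions, higher with the Pcbp1 hairpin and lower with CPX, and its difference was called (5.84; limma adjusted p 5.80e-05). Among the STAT6 targets 3 of 6 were called lower and 1 higher, against the same shares: Il24 (-4.95), Ccr4 (-2.32) and Ccr8 (-2.03) fell, and Crem (3.62) rose. Ccr8 lost its call without either DMSO library, Ccr4 without DMSO replicate 1 and Il24 without either CPX library. Il24 was 68.2-fold lower without DMSO replicate 2 and 14.0-fold lower without DMSO replicate 1, and Ccr8 was 7.79-fold lower without CPX replicate 1 and 2.14-fold lower without CPX replicate 2.

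Among the kinases, Jak1 (log2 fold change 0.94) rose and Jak2 (-1.32) and Tyk2 (-1.32) fell with CPX by limma, while Jak3 (0.04) was not called. Without DMSO replicate 1 none of these kinases was called (adjusted p 0.141 for Jak1, 0.0620 for Jak2 and 0.0659 for Tyk2), and without DMSO replicate 2 Jak1 (0.105) and Tyk2 (0.153) were not. Stat4 (-1.64) fell, a call lost without DMSO replicate 2 or either CPX library. Socs5 (0.89) and, among 10 inhibitors, Ptpn1 (1.05) and Pias2 (0.91) rose, and Pim3 (-0.65) and Ptprc (-0.98) fell. All 5 of these calls were lost without either DMSO library, those of Socs5 and Pias2 also without CPX replicate 1, and that of Ptpn1 also without CPX replicate 2.

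**Figure D4:**
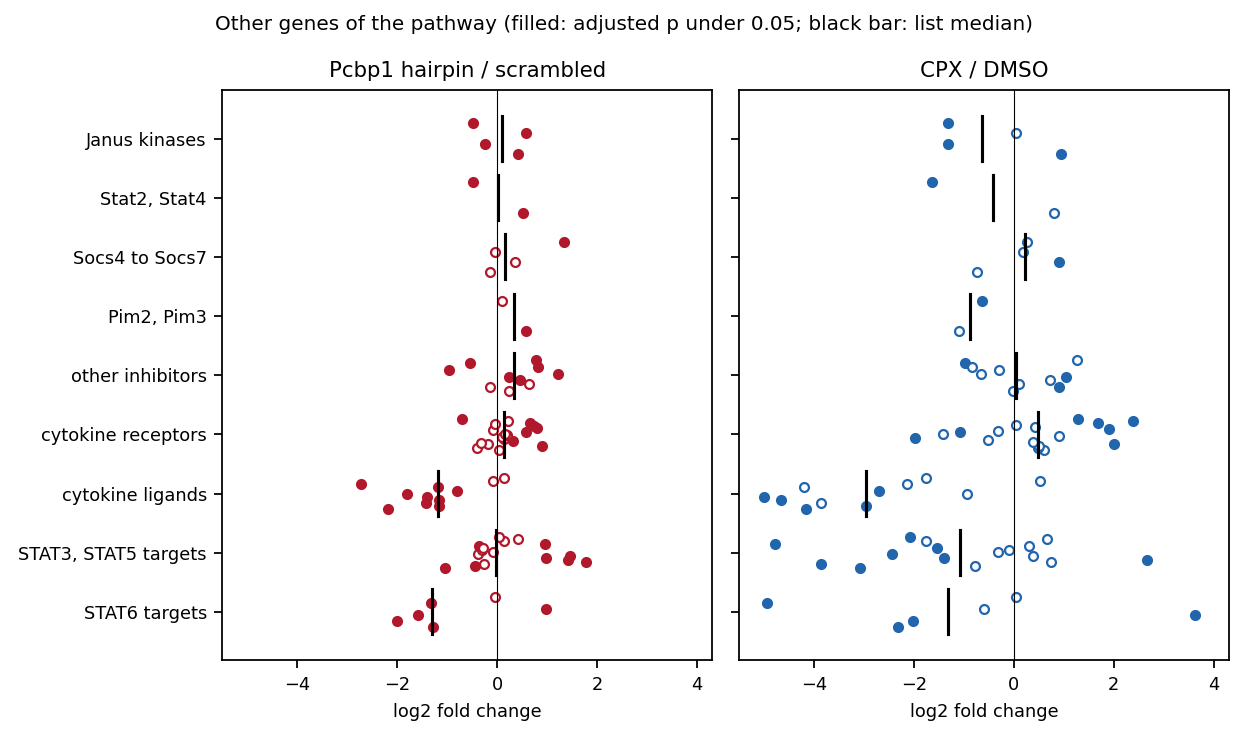
Log2 fold change of each tested gene of the pathway lists, with the Pcbp1 hairpin (left) and with CPX (right), filled where the adjusted p is under 0.05, with a bar at each list's median. The called ligand genes all lie left of 0, 9 of 11 with the Pcbp1 hairpin and 5 of 11 with CPX, while of the 16 STAT3 and STAT5 targets 3 were lower with the Pcbp1 hairpin and 7 with CPX.

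For 8 of the 9, the gene with the most similar pattern over the 8 libraries was found as the smallest root mean square difference of log2(RPM + 0.5), centred within each experiment, among 10429 other genes. It was Dab2ip for Stat3 (0.103), Dbr1 for Stat5b (0.143), Rad23b for Stat6 (0.0341) and Ppp1r15b for Pim1 (0.0639). Among the inhibitors it was Birc6 for Socs1 (0.0654), 5830428H23Rik for Socs2 (0.111), 1110032A03Rik for Socs3 (0.0807) and Rpf2 for Cish (0.151). None of the 9 was another's nearest or second nearest gene. The libraries share depth and processing, and these distances are a description.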

How the data were processed

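Per the submitters' processing notes, cutadapt, STAR, HTSeq and DESeq were used with mm9, without versions. The deposited table of values per library holds, for the knockdown, raw counts per gene, and for CPX, a score: counts rescaled by a common factor and rounded. Per the file headers, the authors' DESeq2 tables give each gene's mean signal (normalized counts), log2 fold change, p-value and adjusted p-value.

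From the line labelled Ins1, which holds a constant, gene labels in that table stood 1 line off. Lines reaching 10 in a library (14805) were therefore named by matching the authors' means (relative tolerance 2e-09 for the knockdown, absolute tolerance 1.2 for CPX), and 14455 matched 1 gene. Cish carried its own label, the other 8 genes the next one.

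RPM is the value over its library's total times 1e+06. Testing took genes that reached 1 RPM in 2 or more of an experiment's 4 libraries: the knockdown with edgeR 4.0.16 (quasi-likelihood, TMM), CPX and the difference with limma 3.58.1 (trended variance, log2(RPM + 0.5)), in R 4.3.3, with Benjamini-Hochberg adjusted p under 0.05 over all genes. The score is not counts, so no count test was run on CPX. Fold changes on the log2(RPM + 0.5) scale understate changes of low genes. The knockdown SE was derived from edgeR's F statistic. On simulated data, 99% of 100 genes changed 1 log2 unit were called in the knockdown design (11575 genes). In the CPX design (11466 genes) the share was 61%. Calls of unchanged genes were 14 and 0. The simulation drew counts, changed only genes above a minimum level, and gave every gene and both designs the same spread. The CPX pair had 1773 genes over 2-fold apart, against 77 in the scrambled pair, so these shares do not describe the CPX data. Nor do they describe knockdown genes of low level or wider spread, such as Socs1 and Socs3.

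The 9 genes and all lists were chosen with earlier results of these data known. All 9 are named, with up to 4 called members of smallest p per list, Pcbp1, and nearest genes in pattern. Promoters were RefSeq's (GRCm38.p6). Protein sequences were not analysed here, and 1 listed gene and the nearest gene of Stat5a are not reported here. Alternatives were other scalings, filters, pseudocounts, a replicate block, DESeq2 1.42.0, and leaving out each library.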

Additional observations from a re-analysis of the deposited data

How the results depend on the processing

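Of the values of single genes under the alternatives tried, 329 kept direction and side of the threshold, 14 lost the call, 9 gained it and 6 changed sign. The changes of sign, none of a called value, were those of Stat5a in the knockdown (-0.000386 to 0.10 without each library in turn, lowest without Pcbp1 hairpin replicate 1) and of Socs3 (-0.93 to 0.0557, highest without Pcbp1 hairpin replicate 2), and under CPX of Socs1 with quantile normalization (0.17) and of Pim1 with TMM scaling (0.11), without DMSO replicate 1 (0.08) and without CPX replicate 1 (0.62; lowest -0.65 without CPX replicate 2). The cause was not tested. Without each library in turn, 5497 to 5762 genes and 5 to 7 of the 9 were called in the knockdown, 2108 to 5809 genes and 3 to 6 of the 9 under CPX, and 3908 to 6852 genes and 5 to 9 of the 9 in the difference. Both low CPX values came from leaving out a DMSO library, where the lone library is assumed to vary like the others. The same holds when a CPX library is left out. The CPX pair, the least alike, then no longer adds to the spread, so calls made that way are weak evidence. Pcbp1 under CPX was 2.40-fold lower (limma adjusted p 0.00613), a call lost without DMSO replicate 1 (0.0580) or 2 (0.0646), with adjusted p from 0.00130 to 0.0646 over 12 alternatives.

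Same-numbered libraries deviated together at a correlation of 0.289 in the knockdown and 0.101 in the drug experiment, from 2 numbers each. The labels give the number no meaning. In the knockdown, CD8 T and NK cell markers summed to 136 and 143 RPM in replicate 1, against 43.1 and 44.3 in replicate 2. Whether same-numbered libraries share a preparation was not tested, and the main tests were unpaired. With a replicate block 7348 genes and 6 of the 9 were called in the knockdown, 5651 and 5 under CPX, and 5362 and 7 in the difference, where Stat3 gained its call (adjusted p 0.0450). Socs1, Socs2 and Socs3 had the lowest depth of the 9 in the knockdown, 52 to 216 reads a library.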
